A study of Mus musculus with 6 samples.

Results

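The Cyp2c cytochromes are a family of haem enzymes of the endoplasmic reticulum, and the 10 genes described here were chosen by symbol, Cyp2c29, Cyp2c37, Cyp2c38, Cyp2c39, Cyp2c40, Cyp2c44, Cyp2c50, Cyp2c54, Cyp2c55 and Cyp2c70, out of 46095 symbols in the deposited table. All 10 were present. RNA was sequenced from liver material labelled as hepatocytes from C57BL/6 mice given a high-fat diet (HFD) for 26 weeks, with 3 wild-type libraries (HFD-WT) and 3 libraries titled as knockouts of ARRB1 (HFD-ARRB1-KO). ARRB1 (beta-arrestin 1) binds activated cell-surface receptors and desensitises them, and the study's title concerns its part in non-alcoholic steatohepatitis. Every mouse was on the diet, so no value here compares the diet with normal feeding. The labels give no sex or age of the mice and name no Cre or promoter. Against their titles, knockout replicates 2 and 3 carry genotype labels of ARRB2-/- and ARRB3-/-. Nothing in the labels says that replicates came from separate animals, and the spread behind each p-value may then be technical.

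Enzymes of this family take electrons from cytochrome P450 reductase and add oxygen to drugs, steroids and fatty acids. Several mouse members turn arachidonic acid into epoxides, which epoxide hydrolases then open to diols. Cyp2c70 stands apart because it hydroxylates bile acids to give the muricholic acids of rodents. In mouse liver Cyp2c29, Cyp2c37, Cyp2c50 and Cyp2c54 are known as genes of hepatocytes near the central vein, and the nuclear receptor CAR (Nr1i3) is known to induce Cyp2c29 and Cyp2c37.

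Of the 10 genes, 9 lie in a row on chromosome 19 of GRCm38, from the left end of Cyp2c55 at 39007019 to the right end of Cyp2c70 at 40187333. Cyp2c44 lies outside this row, at 44005022 to 44029208 on the same chromosome, and both GENCODE M21 and RefSeq list it under the symbol Cyp2c23. The row also holds Cyp2c65, Cyp2c66, Cyp2c67, Cyp2c68 and Cyp2c69, which are not among the 10 but matter because some are near copies of Cyp2c40.

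The copies are close enough that short reads from one gene can match another. The first 60 coding bases show this, with capitals at the positions where the genes of a set differ. Cyp2c37 and Cyp2c54 were identical over this stretch, and Cyp2c50 differed from both at 2 positions.
Cyp2c37: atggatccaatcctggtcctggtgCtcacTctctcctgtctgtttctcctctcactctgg
Cyp2c50: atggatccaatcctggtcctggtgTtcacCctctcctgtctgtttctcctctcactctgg
Cyp2c54: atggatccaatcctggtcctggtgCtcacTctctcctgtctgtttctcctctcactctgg
Cyp2c40 was identical to Cyp2c67 over the same stretch and differed slightly from Cyp2c68 (capitals mark the 3 positions at which Cyp2c40, Cyp2c67, Cyp2c68 and Cyp2c69 are not all the same). The longer annotated start of Cyp2c40 was trimmed to the shared start.
Cyp2c40: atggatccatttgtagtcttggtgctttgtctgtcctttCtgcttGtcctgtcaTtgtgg
Cyp2c67: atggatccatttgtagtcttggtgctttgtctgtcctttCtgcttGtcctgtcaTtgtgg
Cyp2c68: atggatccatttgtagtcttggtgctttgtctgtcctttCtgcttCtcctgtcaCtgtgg
Cyp2c29, Cyp2c38 and Cyp2c39 were not all alike at 11 of the 60 positions.
Cyp2c29: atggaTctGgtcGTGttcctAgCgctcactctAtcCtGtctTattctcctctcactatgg
Cyp2c38: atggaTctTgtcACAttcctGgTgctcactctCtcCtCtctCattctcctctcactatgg
Cyp2c39: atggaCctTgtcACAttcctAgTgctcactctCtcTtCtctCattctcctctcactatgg

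Over whole coding sequences, Cyp2c40 shared 98.1% of its aligned coding bases with Cyp2c68, differing at 28. Cyp2c37 and Cyp2c50 shared 96.1%, Cyp2c50 and Cyp2c54 95.2%, and Cyp2c38 and Cyp2c39 94.2%. Cyp2c29 was at 89.5% to its nearest copy, Cyp2c39. Cyp2c55, Cyp2c70 and Cyp2c44 had no near copy, with 77.5%, 69.5% and 66.9% to their nearest relatives.

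**Figure D1:**
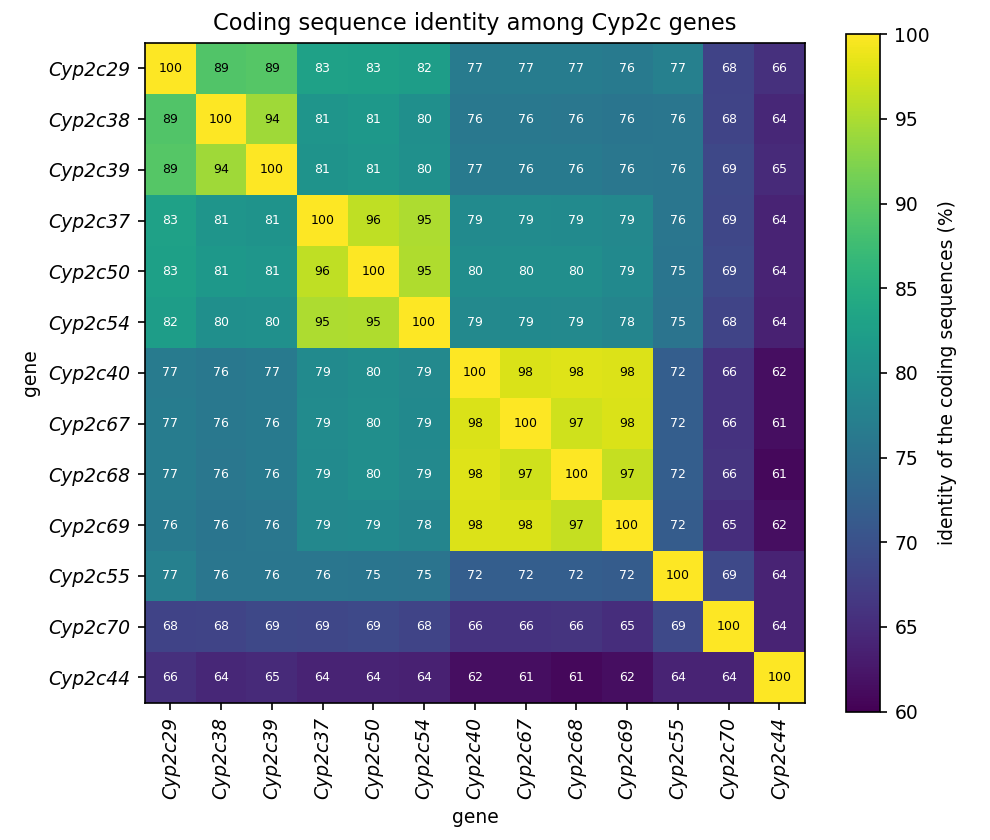
Identity of the coding sequences (%, colour and printed number) between the 10 genes and Cyp2c67, Cyp2c68 and Cyp2c69, one gene per row and column. The bright blocks are the sets of near copies, and Cyp2c55, Cyp2c70 and Cyp2c44 stand alone at 77.5% or less to any other gene.

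How much of each transcript a short read could not place followed from this. Of the 50-base stretches of the Cyp2c40 transcript, 72.1% occurred unchanged in a transcript of another gene, and 44.1% of its 100-base stretches did. For Cyp2c50 the shares were 30.7% and 9.40%, for Cyp2c37 30.1% and 4.70%, and for Cyp2c54 25.7% and 7.59%. Cyp2c39 shared 12.0% and Cyp2c38 7.45% of 50-base stretches and neither shared a 100-base stretch. Cyp2c29 shared 2.08%, Cyp2c55 0.514%, and Cyp2c44 and Cyp2c70 none at 50 bases. Values of Cyp2c40, and to a lesser degree of Cyp2c37, Cyp2c50 and Cyp2c54, are therefore uncertain. The low value of Cyp2c39 may be too, since it shares 11.0% of its 50-base stretches with the far more abundant Cyp2c38. Neither the read length nor the treatment of reads with several matches was given in the sources used here.

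The libraries differed in depth. The whole reads behind the values, recovered from the steps of the FPKM (fragments per kilobase of gene, scaled to the mapped fragments of each library), gave estimated totals, rounded, of 27900000 to 33300000 fragments per wild-type library. Knockout replicates 1, 2 and 3 had 13900000, 35100000 and 29200000 fragments. Arrb1 was at 0.918 to 1.16 FPKM in the knockout libraries and 3.86 to 22.7 FPKM in wild type. The 9 hepatocyte markers measured summed to 50049 to 59208 FPKM in wild type and 47584 to 56619 in knockout. Markers of other liver cells were present too: Kupffer cell markers summed to 319 to 347 FPKM in wild type and 334 to 418 in knockout, and those of macrophages that derive from monocytes or store lipid to 39.1 to 73.9 and 64.7 to 169, with 3 of 7 tested called higher. Of these 3, Mmp12 and Gpnmb passed the filter on low values only through their knockout levels, and the other was Lgals3. The Kupffer cell marker Vsig4 was called lower (22.5 to 16.2 FPKM). Sinusoidal endothelial markers summed to 115 to 135 FPKM in wild type and 128 to 148 in knockout, with 2 of 8 called higher, Lyve1 (3.53 to 9.64 FPKM) and Pecam1 (8.19 to 11.98 FPKM). Stellate cell markers summed to 179 to 203 and 187 to 250.4 FPKM, with 1 of 9 called higher, Col1a1 (2.85 to 10.6 FPKM). Erythroid markers summed to 26.7 to 68.03 and 17.4 to 117 FPKM, with 2 of 5 called higher by limma. These were Hbb-b1 (0.181 to 19.9 FPKM) and Hbb-b2 (0 to 4.45 FPKM), both of which passed the filter only through their knockout levels. Voom called 0, but Hbb-b2, at 0 in wild type, had no recovered reads and was not tested by it. The means of Hbb-bs (20.4 to 8.19 FPKM), Hbb-bt (5.26 to 2.23 FPKM) and Hba-a1 (18.4 to 17.2 FPKM) were lower in knockout, and none was called. The globin genes thus did not move together, and what set Hbb-b1 and Hbb-b2 apart was not tested. Of the hepatocyte markers 2 were called lower, Serpina1c and Tat. Over all tested genes 5.3% were called higher and 1.6% lower. None of these markers was at 0 in every library. Their part in the results below was not tested, and in bulk RNA fewer hepatocytes and less RNA per hepatocyte cannot be told apart.

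The summed level of the family was lower in each knockout library than in any wild-type library, but its members moved in opposite directions. Cyp2c38 and Cyp2c39, neighbours and near copies, rose, though how reads common to both were counted is not known. Cyp2c70, Cyp2c54 and Cyp2c44 fell. Cyp2c29, Cyp2c50 and Cyp2c37, which include the 2 most abundant members, were not called, and their low values were those of knockout replicates 2 and 3. A gene is said to rise or fall where limma's moderated test on log2(FPKM + 1) gave a Benjamini-Hochberg adjusted p under 0.05 over all 10633 genes whose mean reached 1 FPKM.

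By this rule 5 of the 9 tested members were called, where 6.9% of all tested genes were. In detail, 2 of the 9 tested members rose, where 5.3% of all tested genes did, and 3 fell, where 1.6% of all did. The counts fell to 1 higher and 1 lower with no filter on low values and with wild-type replicate 1, 2 or 3 left out. Limma's voom on the recovered reads, chosen after seeing the data, gave counts of 2 and 3. Scaling moved the general background: 76.8% of all calls were rises as deposited and 60.7% after median-of-ratios scaling. No scaling turned the sign of a member. Cyp2c40 had a mean of 0.965 FPKM and was not tested. Cyp2c39 and, narrowly, Cyp2c55 (wild-type means 0.654 and 0.996 FPKM) passed that filter only through their knockout levels. The median log2 fold change of the 9 was -0.60, against 0.07 for all tested genes.

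**Figure D2:**
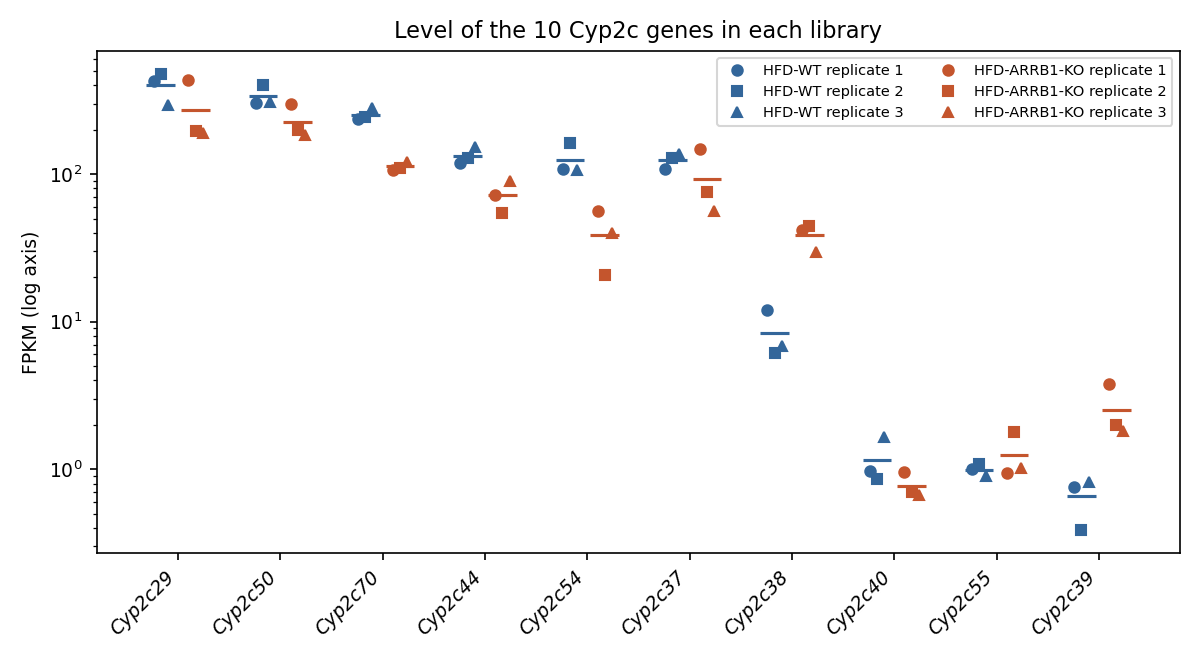
FPKM (log axis) of each of the 10 genes in each library, blue for HFD-WT and orange for HFD-ARRB1-KO, with the replicate number shown by the symbol and a bar at the mean of each group (n = 3). Cyp2c38 and Cyp2c39 lie higher in the 3 knockout libraries, Cyp2c70, Cyp2c44 and Cyp2c54 lower, and Cyp2c29 and Cyp2c37 of knockout replicate 1 sit with or above wild type.

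In wild type the levels fell into an abundant and a scarce set. Cyp2c29 averaged 402 ± 95.7 FPKM and Cyp2c50 339 ± 55.3 (SD, n = 3), and their ranges overlapped. Cyp2c70 followed at 254 ± 24.2. Cyp2c44, Cyp2c54 and Cyp2c37 lay at 133 ± 16.8, 125 ± 31.2 and 125 ± 14.7 FPKM, with neighbours in this order overlapping. Cyp2c38 was far below them at 8.34 ± 3.22, and Cyp2c40, Cyp2c55 and Cyp2c39 averaged 1.16 ± 0.430, 0.996 ± 0.0934 and 0.654 ± 0.234 FPKM.

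In knockout the order changed in the middle and at the bottom. Cyp2c29 (274 ± 140 FPKM) and Cyp2c50 (227 ± 63.3) stayed on top with overlapping ranges, followed by Cyp2c70 (113 ± 7.44), Cyp2c37 (93.4 ± 48.5) and Cyp2c44 (72.1 ± 17.4; SD, n = 3 each). Cyp2c38, seventh in both groups, came level with Cyp2c54: 38.8 ± 8.16 against 38.99 ± 17.6 FPKM, with overlapping ranges. Cyp2c39 moved from last to eighth, above Cyp2c55 and Cyp2c40.

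The strongest rise was that of Cyp2c38 (chromosome 19, 39389556 to 39463075, minus strand), an arachidonate epoxygenase. The wild-type libraries 1 to 3 gave 12.0, 6.13 and 6.87 FPKM, and the knockout libraries 1 to 3 gave 42.1, 44.7 and 29.5. Every knockout library exceeded every wild-type library. The knockout mean was 4.64 times the wild-type mean, or 2.12 ± 0.245 on the log2 scale (SE; limma, adjusted p = 0.00554). The values rested on 491 to 1150 reads per wild-type library and 1678 to 4500 per knockout library. The call held with any 1 library left out (adjusted p 0.00491 to 0.0311).

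Cyp2c39 (39510862 to 39568529, plus strand), known as an epoxygenase and a retinoic acid hydroxylase, rose from a much lower level. Its wild-type libraries held 0.760, 0.386 and 0.817 FPKM and its knockout libraries 3.76, 1.997 and 1.83. The groups did not overlap, and knockout replicate 1 was the highest. The knockout mean was 3.86 times that of wild type, or 1.06 ± 0.217 on the log2(FPKM + 1) scale (SE; limma, adjusted p = 0.0323), which understates changes near 1 FPKM. The reads were few, 20 to 47 per wild-type library and 97 to 130 per knockout library. Leaving out wild-type replicate 1, 2 or 3 ended the call (adjusted p = 0.0772, 0.113 and 0.0603), as did leaving out knockout replicate 2 (0.0823), and over all its alternatives the adjusted p ran from 0.0226 to 0.1202.

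The proportion of Cyp2c39 to Cyp2c38 overlapped between the groups, and the part of reads common to both genes was not tested. Cyp2c39 was at 6.31%, 6.29% and 11.9% of the FPKM of Cyp2c38 in wild type and at 8.93%, 4.46% and 6.20% in knockout (exact permutation test, two-sided, p = 0.5, adjusted p = 0.8 over the 8 ratios computed). Against Cyp2c29, their more abundant relative, Cyp2c38 was at 1.28% to 2.79% of the level of Cyp2c29 in wild type and at 9.66% to 22.8% in knockout, without overlap. A two-sided exact permutation test gave p = 0.1, the least that 3 against 3 libraries can reach, and 0.267 after adjustment over those ratios.

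Among the members that fell, Cyp2c70 (40153353 to 40187333, minus strand), the muricholic acid enzyme, showed the least spread. Wild type gave 235, 245 and 281 FPKM and the knockout libraries 107, 110.02 and 121. The libraries of each group lay close together and the groups were far apart. The wild-type mean was 2.25 times the knockout mean, or -1.16 ± 0.102 on the log2 scale (SE; limma, adjusted p = 0.00209). Cyp2c70 ranked 22 of all tested genes by p. The call held with any 1 library left out (adjusted p 0.00477 to 0.0185), and no 50-base stretch of its transcript occurs in another gene.

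Cyp2c44 (44005022 to 44029208, minus strand), an epoxygenase outside the row, had wild-type values of 119, 129 and 152 FPKM and knockout values of 72.3, 54.6 and 89.4. Every knockout library was below every wild-type library. The log2 fold change came to -0.90 ± 0.180 (SE; limma, adjusted p = 0.0304). It was no longer called when wild-type replicate 1, 2 or 3 was omitted (adjusted p = 0.0606, 0.0997 and 0.0711), nor when knockout replicate 1 or 2 was (0.0587 and 0.0775), and over all alternatives the adjusted p ran from 0.0225 to 0.140.

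Cyp2c54 (40037940 to 40073827, minus strand), which acts on arachidonic and linoleic acids, had the largest fitted fall of the members. Its wild-type values were 108, 161 and 107 FPKM, against 55.9, 20.9 and 40.2 in knockout. The groups did not overlap, and knockout replicate 2 was the lowest. The wild-type mean was 3.22 times the knockout mean, or -1.74 ± 0.332 on the log2 scale (SE; limma, adjusted p = 0.0257). Omitting wild-type replicate 1, 2 or 3 took away the call (adjusted p = 0.0606, 0.101 and 0.0528), and so did omitting knockout replicate 3 (0.0575), and over all alternatives the adjusted p ran from 0.0190 to 0.181.

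**Figure D3:**
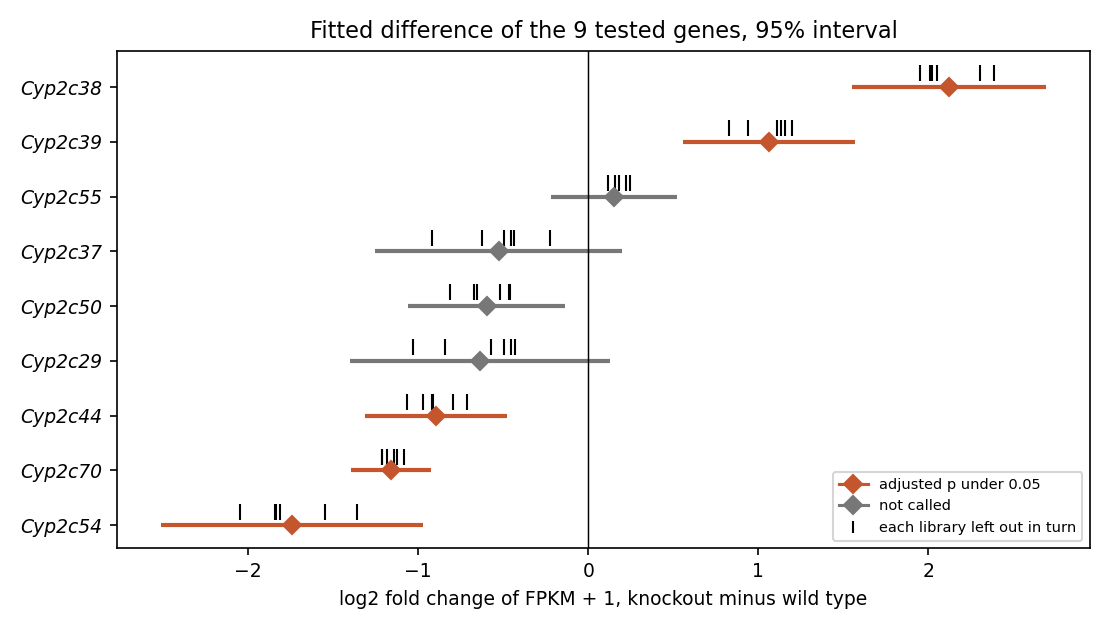
Fitted log2 fold change of FPKM + 1, knockout minus wild type, for the 9 tested genes (diamonds, with lines for the 95% interval of the fit). Orange marks genes with an adjusted p under 0.05, and short black ticks above each gene give the fold change with each library left out in turn. The ticks of Cyp2c70 and Cyp2c38 stay far from 0, and those of Cyp2c29 and Cyp2c37 spread from -1.03 to -0.43 and from -0.92 to -0.22.

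The near copies of Cyp2c54 were not called. Cyp2c50 (40089688 to 40113950, plus strand), which also acts on arachidonic and linoleic acids, had 304, 403 and 310 FPKM in the wild-type libraries, against 299.8, 198 and 183 in the knockout libraries. The groups were separate only by the narrow gap between knockout replicate 1 and wild-type replicate 1. The log2 fold change was -0.60 ± 0.200 (SE; limma, adjusted p = 0.115). Cyp2c37 (39992424 to 40012243, plus strand), known as an arachidonate hydroxylase, had 108, 129 and 137 FPKM in wild type, against 148, 75.8 and 56.1 in knockout. Its knockout replicate 1 was the highest of the 6 libraries and its replicates 2 and 3 were the lowest, so the groups overlapped (log2 fold change -0.53 ± 0.313, SE; limma, adjusted p = 0.333).

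Within this set Cyp2c54 was at 35.5%, 40.1% and 34.5% of the level of Cyp2c50 in wild type and at 18.7%, 10.5% and 21.9% in knockout, without overlap. It was at 78.3% to 125% of Cyp2c37 in wild type and 27.5% to 71.6% in knockout, again without overlap. Cyp2c37 relative to Cyp2c50 overlapped, at 32.0% to 44.04% and 30.6% to 49.5%. For both ratios without overlap the exact permutation test gave p = 0.1 (two-sided) and an adjusted p of 0.267 over the 8 ratios. How reads common to these copies were divided was not tested. Summed to 1 value, Cyp2c37, Cyp2c50 and Cyp2c54 gave 589 ± 91.7 FPKM in wild type and 359 ± 125 in knockout (SD, n = 3 each) and were not called (limma, adjusted p = 0.0928).

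Cyp2c29 (39269405 to 39330713, plus strand), the most abundant member and an epoxygenase, had wild-type levels of 431, 480 and 295 FPKM and knockout levels of 435, 196 and 189. Knockout replicate 1 lay within the wild-type range, and the other two lay below it. The log2 fold change was -0.64 ± 0.330 (SE; limma, adjusted p = 0.270). Its values rested on at least 9858 reads per library, so counting error was small against this split.

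Knockout replicate 1 therefore decided the calls of 3 members. Without it, Cyp2c29 (log2 fold change -1.03, adjusted p = 0.0436), Cyp2c37 (-0.92, adjusted p = 0.0315) and Cyp2c50 (-0.81, adjusted p = 0.0355) passed limma's threshold and Cyp2c44 did not, so that 5 members fell in place of 3. Over all alternatives the adjusted p ran from 0.0436 to 0.851 for Cyp2c29, from 0.0315 to 0.662 for Cyp2c37 and from 0.0355 to 0.746 for Cyp2c50. This library was the shallowest of the 6, and it is the only knockout library whose genotype label names ARRB1. The part of either in the split was not tested. Relative to the wild-type mean, its Cyp2c70 (log2 ratio -1.24) and Cyp2c38 (2.33) lay near those of replicate 2 (-1.20 and 2.42) and replicate 3 (-1.06 and 1.82), while its Cyp2c29 (0.11) and Cyp2c37 (0.25) did not (-1.03 and -0.72 in replicate 2, -1.09 and -1.15 in replicate 3).

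**Figure D4:**
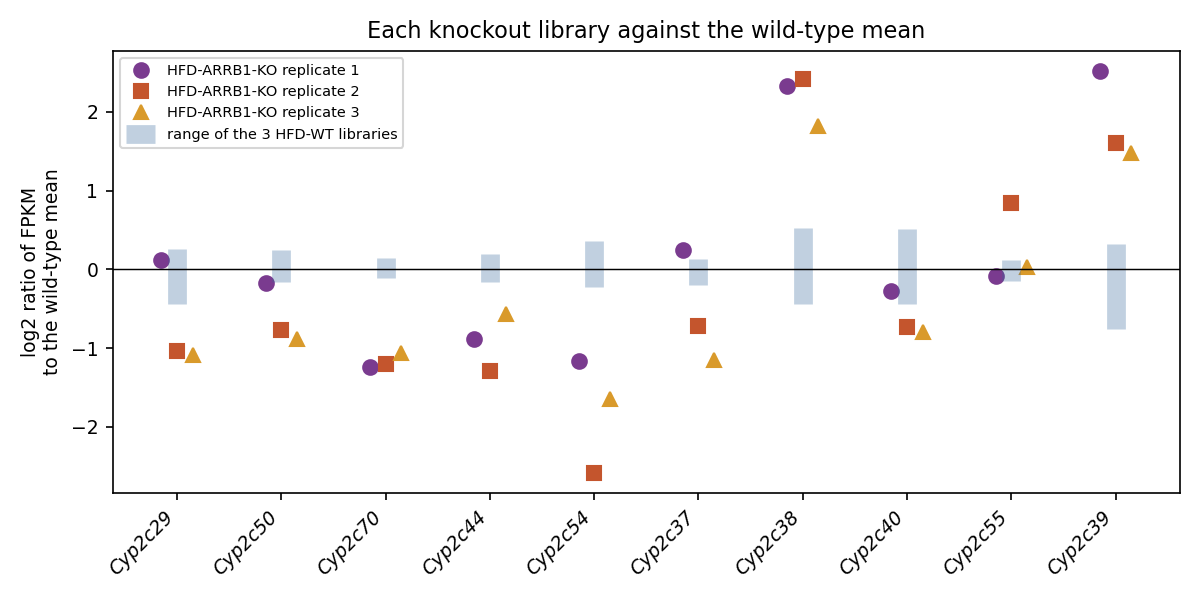
Log2 ratio of the FPKM of each knockout library to the wild-type mean, by gene, with the range of the 3 HFD-WT libraries as a pale blue bar. Replicate 1 (purple circles) lies near 0 for Cyp2c29, Cyp2c50 and Cyp2c37 but with the other knockout libraries for Cyp2c70, Cyp2c38 and Cyp2c44.

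The remaining members were scarce. Cyp2c55 (39007019 to 39042693, plus strand), known mainly from the intestine, had 1.011, 1.08 and 0.896 FPKM in wild type, against 0.940, 1.78 and 1.017 in knockout, from 26 to 124 reads per library. Only knockout replicate 2 left the wild-type range, and the gene was not called (log2 fold change 0.15, 95% interval -0.22 to 0.52; limma, adjusted p = 0.597). Cyp2c40 (39767071 to 39812814, minus strand), an arachidonate hydroxylase, had 0.967, 0.855 and 1.65 FPKM in wild type, against 0.958, 0.697 and 0.666 in knockout, with overlap. With no filter on low values its log2 fold change was -0.27 (95% interval -0.67 to 0.14; limma, adjusted p = 0.517).

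Its near copies were far more abundant. Cyp2c67 was at 153 ± 33.6 FPKM in wild type and 136 ± 5.11 in knockout, and Cyp2c68 at 76.1 ± 20.4 and 81.2 ± 10.8 (SD, n = 3 each). Neither was called (limma, adjusted p = 0.579 and 0.741), and 0 of these 2 genes passed at an unadjusted p under 0.05 or by voom. Cyp2c69 averaged 0.500 ± 0.0672 and 0.262 ± 0.176 FPKM, Cyp2c66 was listed at 0, and Cyp2c65 averaged 0.0453 and 0.0182 FPKM. The pseudogene Cyp2c53-ps had 8, 14 and 12 reads in wild type, against 1, 0 and 0 in knockout. Most 50-base stretches of the Cyp2c40 transcript are shared with these copies, and how such reads were counted was not tested. The sum of Cyp2c40, Cyp2c67, Cyp2c68 and Cyp2c69 was 231 ± 54.4 FPKM in wild type and 219 ± 6.33 in knockout (SD, n = 3 each), a log2 fold change of -0.05 with a 95% interval of -0.41 to 0.31 (limma, adjusted p = 0.861).

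The risen genes Cyp2c38 and Cyp2c39 lie side by side between Cyp2c29 and Cyp2c67, which were not called. At the other end Cyp2c54, which fell, lies between Cyp2c37 and Cyp2c50, which were not called, and Cyp2c70 ends the row. Of the 9 tested members, 2 were higher in every knockout library than in any wild-type library, where 23.4% of all tested genes were. Another 4 were lower without overlap, where 7.81% of all tested genes were.

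**Figure D5:**
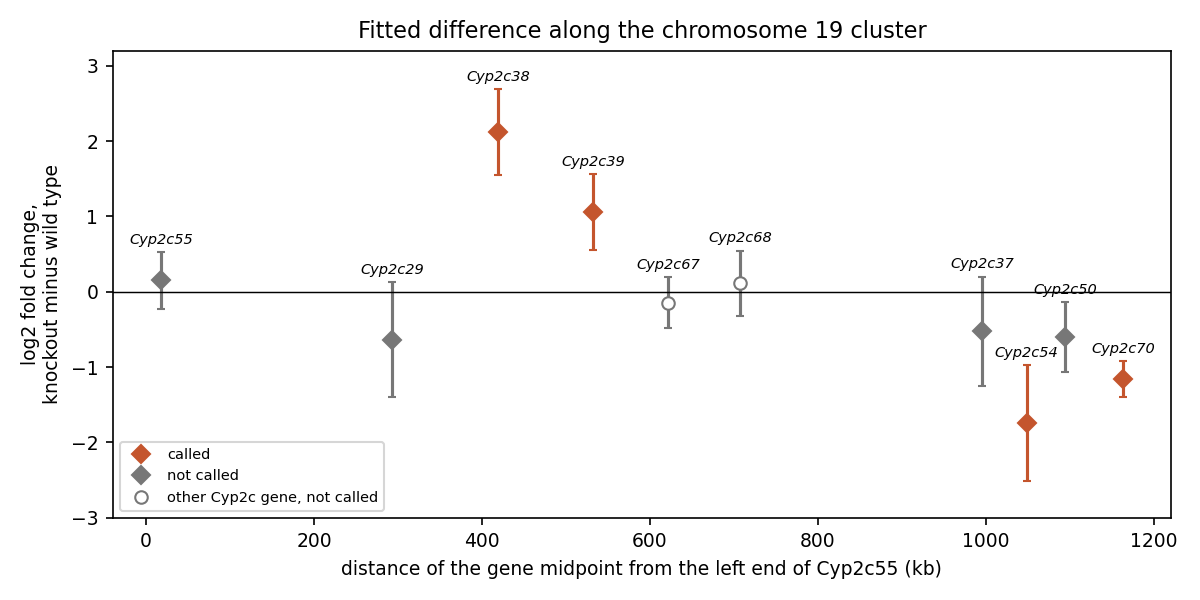
Fitted log2 fold change with its 95% interval against the distance of each gene's midpoint from the left end of Cyp2c55 (kb), for the tested Cyp2c genes of the row. Diamonds are the members and open circles Cyp2c67 and Cyp2c68, orange marks called genes, and Cyp2c44 lies too far to the right to be drawn. The 2 risen genes are neighbours, and those that fell lie at the right end among genes that were not called.

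Added over the 10 members, the level was 1319.8, 1555 and 1292 FPKM in wild type, against 1166, 705 and 713 in knockout. Each knockout library was below each wild-type library, least so in knockout replicate 1. The means were 1389 ± 145 and 861 ± 264 FPKM (SD, n = 3 each), a log2 ratio of -0.69 (exact permutation test, two-sided, p = 0.1). Shares of the sum were compared for the 10 members. Cyp2c38 supplied 0.394% to 0.912% of it in wild type and 3.61% to 6.35% in knockout, and Cyp2c54 8.18% to 10.4% and 2.96% to 5.64%, neither with overlap. The shares of Cyp2c39 (0.0248% to 0.0633% and 0.256% to 0.322%) and the uncalled Cyp2c55 (0.0693% to 0.0766% and 0.0806% to 0.252%) were also higher without overlap. For each of these shares the exact permutation test gave p = 0.1 (two-sided), and 0.25 after adjustment over the 10 shares. A share also depends on the sum, which was lower in knockout. Cyp2c29 supplied 22.9% to 32.7% and 26.6% to 37.3%, with overlap.

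Several members share a short element before their start, shown here because it occurs in a member that rose and in one that fell. The letters CAAAGTCNA, a form of the element through which HNF4A is known to bind Cyp2c promoters, were searched on both strands of the 250 bases before each RefSeq start (GRCm38.p6). The promoter table held 8 of the 10 members, with 9 starts, and lacked Cyp2c54 and Cyp2c44, which both fell. The letters were found in 5 members, Cyp2c29, Cyp2c37, Cyp2c39, Cyp2c40 and Cyp2c70. That was at 6 of the 9 starts, where 0.898% of all 32851 promoters held them. They were also found before Cyp2c65, Cyp2c67, Cyp2c68 and Cyp2c69, which are not among the 10 and were not called or not tested. Capitals mark the element or its nearest form.
Cyp2c29, chr19:39286961-39286999, plus strand: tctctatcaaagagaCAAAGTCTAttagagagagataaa
Cyp2c39, chr19:39510721-39510759, plus strand: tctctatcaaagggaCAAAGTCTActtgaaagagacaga
Cyp2c38, chr19:39463163-39463201, minus strand: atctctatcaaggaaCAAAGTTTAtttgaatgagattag
Cyp2c37, chr19:39992293-39992331, plus strand: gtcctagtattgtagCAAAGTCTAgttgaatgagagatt
Cyp2c50, chr19:40089550-40089588, plus strand: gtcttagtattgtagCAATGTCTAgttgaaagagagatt
Cyp2c40, chr19:39812836-39812874, minus strand: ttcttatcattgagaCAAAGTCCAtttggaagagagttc
Cyp2c70, chr19:40187327-40187365, minus strand: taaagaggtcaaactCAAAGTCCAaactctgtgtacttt
With positions counted from 1 at the 5′ end of the element, the nearest form in Cyp2c38 carries C7T, that in Cyp2c50 A4T and that in Cyp2c55 A3G. Cyp2c38, which lacks the exact letters, and Cyp2c39, which has them, both rose. A match describes letters only and says nothing of binding in these livers. Hnf4a itself was at 189 FPKM in wild type and 198 in knockout (log2 fold change 0.06; limma, adjusted p = 0.760).

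Other genes of the same metabolism were read from lists. The counts of these and the following lists stand beside 5.3% of all tested genes called higher and 1.6% called lower. Of 8 genes for electron supply and haem, among them the P450 reductase Por (54.9 and 55.9 FPKM), limma called 0, with 1 at an unadjusted p under 0.05 and 0 by voom. Of 5 tested genes for other epoxygenases and epoxide hydrolases, 1 was higher and 0 lower. That was Ephx1, the microsomal epoxide hydrolase, which rose from 142 ± 24.2 to 272 ± 39.1 FPKM (SD, n = 3 each; limma, adjusted p = 0.0174). Ephx2, the soluble hydrolase that opens fatty acid epoxides, was at 464 and 449.6 FPKM and was not called (limma, adjusted p = 0.846), nor was the epoxygenase Cyp2j5 (177 and 164 FPKM; adjusted p = 0.508). Of 10 tested genes of other arachidonate routes, 3 were higher and 1 lower. The omega-hydroxylase gene Cyp4a14 rose from 71.8 ± 37.4 to 418 ± 127 FPKM and its relative Cyp4a10 from 99.2 ± 39.7 to 326 ± 78.3 FPKM. Pla2g6, a phospholipase, rose from 8.24 ± 1.35 to 17.3 ± 2.48 FPKM, and Cyp4f14 fell from 129 ± 9.19 to 78.2 ± 9.17 FPKM.

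The receptors that induce Cyp2c genes were not called, while several of their known targets rose. Nr1i3 (CAR) was at 38.6 FPKM in wild type and 37.6 in knockout, and Nr1i2 (PXR) at 25.1 and 32.2 (limma, adjusted p = 0.878 and 0.0943). Of 16 tested genes of the CAR and PXR list, 5 were higher and 0 lower by limma, with 1 lower by voom. Cyp3a11 rose from 168 ± 49.2 to 665 ± 177 FPKM (limma, adjusted p = 0.00575), and Abcc3, Ugt1a1 and Gstm3 by 1.23, 0.69 and 2.14 on the log2 scale. Cyp2c29 and Cyp2c37, known CAR targets, were not called, which turned on knockout replicate 1. Cyp2b10, also on the list, averaged 0.0506 FPKM in wild type and 0.503 in knockout, below the filter, and was not tested. The part of CAR and PXR in these values was not tested. Of 21 tested liver transcription factors, 2 were higher (Stat5a, which rose from 5.36 to 9.06 FPKM, and Ppara, from 38.8 to 61.6 FPKM) and 1 was lower (Foxa3, from 30.7 to 20.8 FPKM).

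In bile acid synthesis, the pathway of Cyp2c70, 1 of 12 tested genes was higher (Hsd17b4, a peroxisomal enzyme of side chain shortening, 233 to 357 FPKM) and 1 lower. The latter was Cyp7b1, the oxysterol hydroxylase, at 183 ± 40.7 FPKM in wild type and 67.3 ± 22.2 in knockout (SD, n = 3 each; limma, adjusted p = 0.0170). Cyp7a1, the rate-limiting enzyme, was at 27.3 and 3.58 FPKM and was not called (limma, adjusted p = 0.0674). Cyp8b1, which makes cholic acid, was at 259 and 209 FPKM and was not called either (adjusted p = 0.200). Called or not, 5 of the 12 were lower without overlap, Cyp7a1, Cyp7b1, Cyp27a1, Slc27a5 and Baat, where 7.81% of all tested genes were. Higher without overlap was 1 of the 12, where 23.4% of all were. Of 10 tested genes of retinoid oxidation, Rdh16 (27.1 to 55.8 FPKM) and the retinoic acid hydroxylase gene Cyp26b1 (1.53 to 5.56 FPKM) were higher and Rdh11 (35.5 to 11.4 FPKM) was lower.

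Cyp2c29, Cyp2c37, Cyp2c50 and Cyp2c54 were read beside other genes of the central-vein zone. Of 14 tested pericentral genes, 1 was higher, the ammonium transporter gene Rhbg (5.07 ± 0.418 to 9.36 ± 0.470 FPKM; limma, adjusted p = 0.00574), and 0 were lower, with 1 lower by voom. Cyp2e1 was at 3836 and 4531 FPKM and Glul at 520 and 713 FPKM, and neither was called (adjusted p = 0.386 and 0.0696). At an unadjusted p under 0.05 (limma) were 5 of the pericentral genes, in both directions. Rhbg and Glul were higher, and Cyp1a2 (178 to 118 FPKM), Cyp27a1 (219 to 185 FPKM) and Lgr5 (3.37 to 2.28 FPKM) were lower without being called. Of 12 tested periportal genes 1 was higher (Hsd17b13, 141 to 230.5 FPKM) and 3 were lower, among them the urea cycle gene Cps1 (308 to 180 FPKM), with 5 lower by voom. The other two were Etnppl (41.9 to 23.4 FPKM) and Hal (119 to 80.4 FPKM). Of 16 tested genes known as male-biased in mouse liver, 12 were lower, led by Mup21 (92.5 to 18.02 FPKM), Serpina1e (5509 to 279.5 FPKM), Hsd3b5 (158 to 6.72 FPKM) and Susd4 (17.7 to 4.73 FPKM). Mup21 and Serpina1e belong to families of near copies and their values are uncertain. Of 7 tested female-biased genes 3 were higher, Cyp2b9 (1.12 to 76.9 FPKM), Cyp2b13 (0.0105 to 3.81 FPKM) and Cyp2a4 (0.108 to 2.89 FPKM), the last 2 of which passed the filter only through their knockout levels. Checked after these lists were seen, the Y-linked genes Ddx3y (9.21 to 15.8 FPKM) and Eif2s3y (10.7 to 17.1 FPKM) were present in all 6 libraries and Xist was listed at 0 in all but wild-type replicate 2, where it was near 0, as in male mice. The part of the sex-biased genes' shift in the Cyp2c values was not tested. Among P450 genes outside Cyp2c, 9 of 50 tested were higher and 5 were lower. Of those higher, Cyp2a22, Cyp2a4 and Cyp2b13 passed the filter only through their knockout levels. Cyp2b9 and the sterol demethylase gene Cyp51 (102 to 16.2 FPKM) had the smallest p. The median log2 fold change was -0.01, against -0.60 for the Cyp2c members, with near copies counted singly. Cyp2c67 (-0.14) and Cyp2c68 (0.11) are in neither median.

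The genes whose levels over the 6 libraries were most like those of 2 members were taken from 10622 tested genes outside Cyp2c, by Pearson's r of log2(FPKM + 1). For Cyp2c29, the most abundant member, these were Homer2 (r = 0.990), Slc22a23 (0.984), Gna14 (0.974), Akr1d1 (0.974) and LOC108168394 (0.968). Akr1d1, a bile acid synthesis gene, was at 51.2, 56.4 and 35.4 FPKM in wild type, against 43.9, 28.6 and 27.6 in knockout. These genes were chosen for this likeness, so their pattern over the libraries is a description only. For Cyp2c38, with the largest fold change, they were Acss3 (r = 0.998), Abhd6 (0.997), Pnldc1 (0.997), Pcsk6 (0.995) and Rab43 (0.994). These values describe 6 libraries in 2 groups.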

How the data were processed

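Trizol-extracted RNA (1 ug per sample) went into Illumina TruSeq libraries, per the labels' protocols. The authors deposited 1 FPKM value per gene symbol and library. Bowtie 0.12.2, HISAT2 and the builds mm8 and mm10 are named in the submitters' processing notes, and their roles, the annotation and the counting of reads with several matches are not given in the sources used here. Groups were taken from sample titles.

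Limma 3.58.1 in R 4.3.3 (lmFit, eBayes with trend, two-sided) was fitted to log2(FPKM + 1) with group as its sole term, over genes whose mean reached 1 FPKM, and p-values were adjusted by Benjamini-Hochberg over all of them. The fit was also run on simulated data, the outcome of which is not given here. Whole reads were recovered for 17547 of 17549 genes above 0 in at least 4 libraries, within at most 0.05 reads. With wrong relative depths 3 of 1063 genes came out whole, against 977 with the right ones, in a search to 2000 reads. Totals were set from lengths of RefSeq pseudogenes and are estimates. Voom (limma) was run on these reads with median-of-ratios library sizes. Identity and shared stretches come from GENCODE M21 transcripts (GRCm38, sense strand, Biopython 1.88) and promoters from RefSeq (GRCm38.p6). Intervals are 95% intervals of the fit.

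The named genes are the 10 members, the other Cyp2c symbols, up to 4 called genes per list with the smallest p, and the 5 genes most like 2 members. Uncalled genes of the lists were named after their values were seen. The members and lists were chosen with earlier results of these data known. Alternatives were another pseudocount, filters, scalings, eBayes without trend, a replicate block, each library left out and close copies summed, with voom and the omission of the 2 oddly labelled knockout libraries added after seeing the data.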

Additional observations from a re-analysis of the deposited data

How the results depend on the processing

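Cyp2c38 passed the threshold in 15 of its 16 alternatives and Cyp2c70 in 16 of 17, the exception for both being knockout replicate 1 alone against wild type (adjusted p = 0.0804 and 0.0553). The counts of 2 higher and 3 lower members became 1 and 1 with no filter. The higher count was 1 with a filter at 5 FPKM, which leaves Cyp2c39 untested, and 1 under quantile normalization (Cyp2c39, adjusted p = 0.0568; the cause was not tested). With close copies summed it was 0, with 0 at an unadjusted p under 0.05, where Cyp2c38 is added to the far more abundant Cyp2c29. With each library left out in turn, 1 to 2 members were higher and 1 to 5 lower, and the log2 ratio of the summed level lay between -0.97, when knockout replicate 1 was omitted, and -0.56, when replicate 2 was. With only knockout replicate 1 against wild type, whose spread the lone library is assumed to share, 0 members were higher and 0 lower by limma, with 2 and 3 at an unadjusted p under 0.05, and the sign turned for Cyp2c29 (0.14) and Cyp2c37 (0.26).

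With the replicate number as a block, 2 members were higher and 2 lower, and Cyp2c54 lost its call (adjusted p = 0.0507). Over all tested genes, 564 higher and 170 lower calls became 280 and 122 with the block, 88 and 58 with no filter, 94 to 422 and 54 to 119 with 1 library left out, and 30 and 42 with knockout replicate 1 alone. Quantile normalization gave 371 rises among 10633 tested genes and median-of-ratios scaling 349 among 10631. TPM scaling gave 916 among 12228, with the filter and pseudocount kept at 1 on its larger scale. Voom gave 294 falls. Deviations of same-numbered libraries correlated at 0.17, -0.0625 and 0.0966 for numbers 1 to 3, so the numbers are not shown to pair the samples. Depth limits the values of Cyp2c39, Cyp2c40 and Cyp2c55 most, with 20 to 130, 24 to 90 and 26 to 124 reads per library.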
